A study of Homo sapiens with 4 samples.

Results

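HepG2, an established human hepatoma cell line that is widely used as a model of hepatocytes, was kept in 0.08% dimethyl sulfoxide (DMSO) for 2 h or for 4 h as the solvent control of a berberine experiment. The miRNA repertoire of these control cells is described here from 2 of the 4 arrays of the series, the control array at 2 h and the control array at 4 h. The remaining arrays held cells given 40 µM berberine chloride from a DMSO stock for the same times, and they are used only for scaling and where named. The control cells had received the solvent, so they are solvent controls rather than untreated cells, and no array of cells without DMSO was analysed. Total RNA of each culture was hybridised to 1 single-colour Agilent human miRNA array, and all 4 arrays lay on 1 slide. Each time point had 1 array, so there is no replicate, no test was possible, and every error given is the measurement error of the array software. HepG2 is 1 tumour line grown in culture, without the other cell types of a liver.

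MicroRNAs (miRNAs) are short RNAs cut from hairpin precursors that guide Argonaute proteins to messenger RNAs and lower their translation or stability. Target choice rests mainly on the seed, bases 2 to 8 from the 5′ end, so miRNAs with a shared seed are grouped as a family. One strand of the hairpin, the guide, is usually kept and the other, the passenger (marked with an asterisk in the array's names), is usually degraded. In the liver, miR-122 is known as the dominant hepatocyte miRNA, and miR-21 and the miR-17-92 cluster are known as miRNAs that are abundant in many tumours.

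The members were the 851 human miRNAs of the array, ranked by their total signal, an intensity summed by the software over the probes that passed its detection limit. The mature sequences of those on which the profile turned are printed with the seed in capitals, in groups of 1 seed each, because these groups carried most of the signal of miRNAs that remain in use. They were taken from RefSeq for GRCh38.p14, whose table matched 197 of the 242 miRNAs detected on at least 1 control array.
miR-21: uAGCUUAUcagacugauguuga
miR-20a: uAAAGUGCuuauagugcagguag
miR-17: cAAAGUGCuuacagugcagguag
miR-106b: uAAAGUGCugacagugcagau
miR-93: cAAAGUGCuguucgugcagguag
miR-19a: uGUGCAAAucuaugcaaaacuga
miR-19b: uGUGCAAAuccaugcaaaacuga
miR-103: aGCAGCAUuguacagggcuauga
miR-107: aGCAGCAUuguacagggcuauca
miR-29a: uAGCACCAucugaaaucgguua
miR-29b: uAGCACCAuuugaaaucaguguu
miR-148a: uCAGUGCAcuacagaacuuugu
miR-192: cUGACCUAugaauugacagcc
miR-215: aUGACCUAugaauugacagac
let-7a: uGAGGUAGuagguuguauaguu
let-7f: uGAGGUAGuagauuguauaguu
miR-34a: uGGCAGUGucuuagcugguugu
miR-122: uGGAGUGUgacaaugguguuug

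Of the 851 human miRNAs, 235 (27.6%) were detected on the control array at 2 h and 226 (26.6%) on that at 4 h. The shared set held 219 miRNAs, which was 93.2% of those detected at 2 h and 96.9% of those detected at 4 h, and 609 were detected on neither array. The software called a miRNA detected when at least 1 of its probes exceeded 3 times the error of that probe. The dimmest detected miRNA had a signal of 1.79 at 2 h and 2.34 at 4 h and the brightest 40425 and 38321, with a median of 39.0 on both arrays, and no spot was saturated. On both arrays, spots of miR-720 and miR-1274b were flagged as taken from a scan at lower gain and scaled up by the software. Spots of the same probe varied by a median of 4.31% at 2 h and 7.71% at 4 h in the brighter part of the detected probes, and by 14.5% and 19.05% in the dimmer part. A signal depends on how well each probe binds as well as on the amount of RNA, so the ranks below are ranks of brightness and not of molecules.

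A few entries held most of the signal. The brightest, miR-720, had a total signal of 40425 ± 3103 at 2 h and 38321 ± 2924 at 4 h, which was 33.8% and 35.2% of the summed signal of the detected human miRNAs. The 10 brightest entries held 71.1% at 2 h and 72.3% at 4 h. The first 3 entries, miR-720, miR-1274b and miR-21, passed 50% of the signal on both arrays, and 90% was reached with 41 entries at 2 h and 40 at 4 h. In the plot of signal by rank, both arrays fell steeply over these first entries and then slowly.

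**Figure D1:**
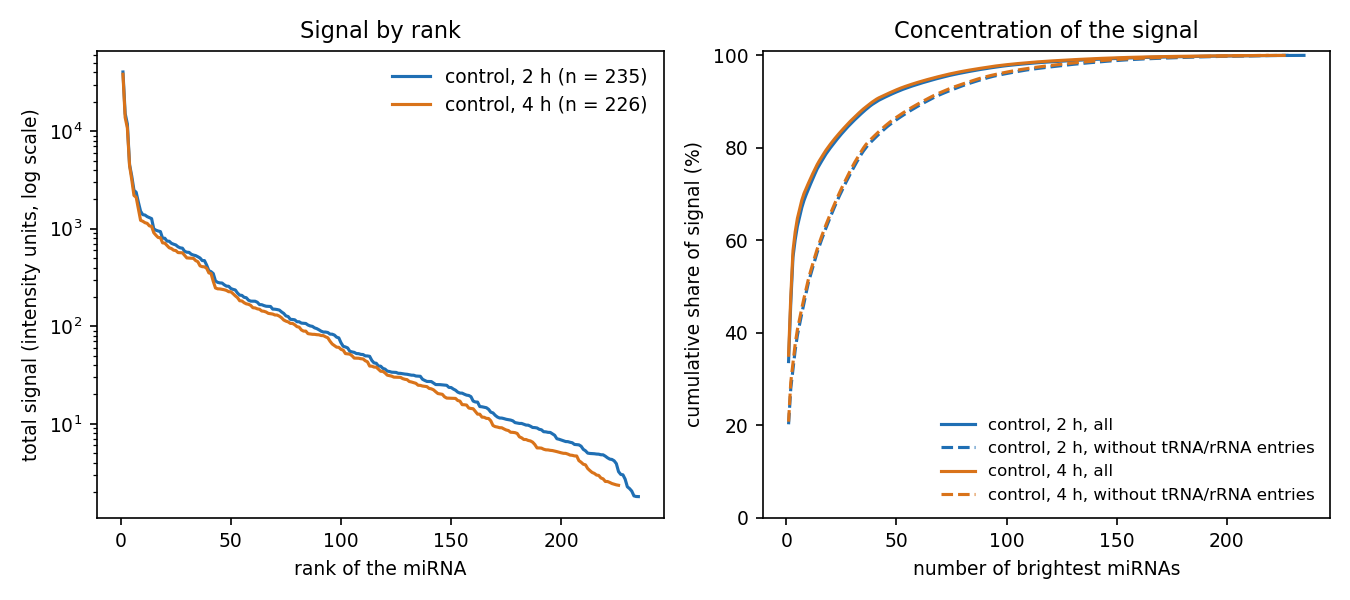
Left, the total signal of each detected human miRNA (intensity units, log axis) against its rank, for the control array at 2 h (235 miRNAs) and at 4 h (226 miRNAs). Right, the cumulative share of the summed signal (%) over the brightest miRNAs, with all entries (solid lines) and without the 7 entries now classed as tRNA or rRNA fragments (dashed lines), which start at 20.2% and 20.8%.

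Much of this signal came from entries that are no longer regarded as miRNAs. As background, 7 entries are known to have been withdrawn from miRBase as likely fragments of transfer or ribosomal RNA: miR-720, miR-1274a, miR-1274b, miR-1280, miR-1308, miR-923 and miR-1826. This list rests on general knowledge, was not checked against a table or the sequences, and was drawn up after the ranks were seen, so the shares with and without it depend on that classification. All 7 were detected on both control arrays and together held 51.1% of the signal at 2 h and 52.4% at 4 h. The signal of miR-1274b was 15159 ± 1117 at 2 h and 13824 ± 1025 at 4 h. That of miR-1274a was 3455 ± 281 and 3179 ± 261, and that of miR-923 was 1511 ± 132 and 1152 ± 102. The dimmest of them, miR-1826, was at 11.3 ± 1.59 and 9.25 ± 1.76.

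With these 7 entries set aside, miR-21 was the brightest miRNA, with 20.2% of the remaining signal at 2 h and 20.8% at 4 h, and the 10 brightest held 50.9% and 51.6%. Then 10 miRNAs made up 50% of the signal on each array, and 64 at 2 h and 62 at 4 h made up 90%. The total signal of miR-21, a miRNA of the VMP1 locus that is raised in many tumours, was 11833 ± 861 at 2 h and 10795 ± 788 at 4 h. Its mature sequence lies at chr17:59841273-59841294 on the plus strand of GRCh38.p14.

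Next in brightness came miR-1260, with 4536 ± 418 at 2 h and 4434 ± 411 at 4 h. It was not among the 7 entries set aside, and its unscaled signal varied 1.09-fold over the 4 arrays, beside 1.08-fold for miR-720. For the median of 190 other miRNAs the variation was 1.86-fold, and whether miR-1260 is a tRNA fragment was not tested. After it came members of the miR-17-92 cluster, which is known to promote proliferation. The signal of miR-20a was 2476 ± 180 at 2 h and 2101 ± 154 at 4 h, and that of miR-19b, whose sequence is encoded at 2 loci, was 2364 and 2190. For miR-19a the signals were 1393 at 2 h and 1219 at 4 h. For miR-17 they were 1380 and 1057. The liver miRNA miR-148a stood between them in rank, at 1870 ± 133 and 1593 ± 114.

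The other entries among the 20 brightest were, in order of their mean share, miR-34a, miR-103, miR-192, miR-107, miR-10b, miR-29b, miR-29a, miR-1246 and miR-106b. The signal of miR-34a, a target of p53 that restrains the cell cycle, was 1330 at 2 h and 1192 at 4 h. The paired miRNAs miR-103 and miR-107, which sit in introns of the pantothenate kinase genes PANK3, PANK2 and PANK1, were at 1300 and 996 at 2 h and at 1134 and 909 at 4 h. The signals of miR-29b and miR-29a, known repressors of collagens and DNA methyltransferases, were 965 and 947 at 2 h and 812 and 809 at 4 h. The last of the 20, miR-106b, lies within MCM7 and was at 798 and 673. Of the 19 neighbouring pairs in this order, 6 were apart by more than 1.96 times their joint measurement error on both arrays. These 6 lay among the first 8 places, and no pair from miR-148a downward was apart on both arrays.

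**Figure D2:**
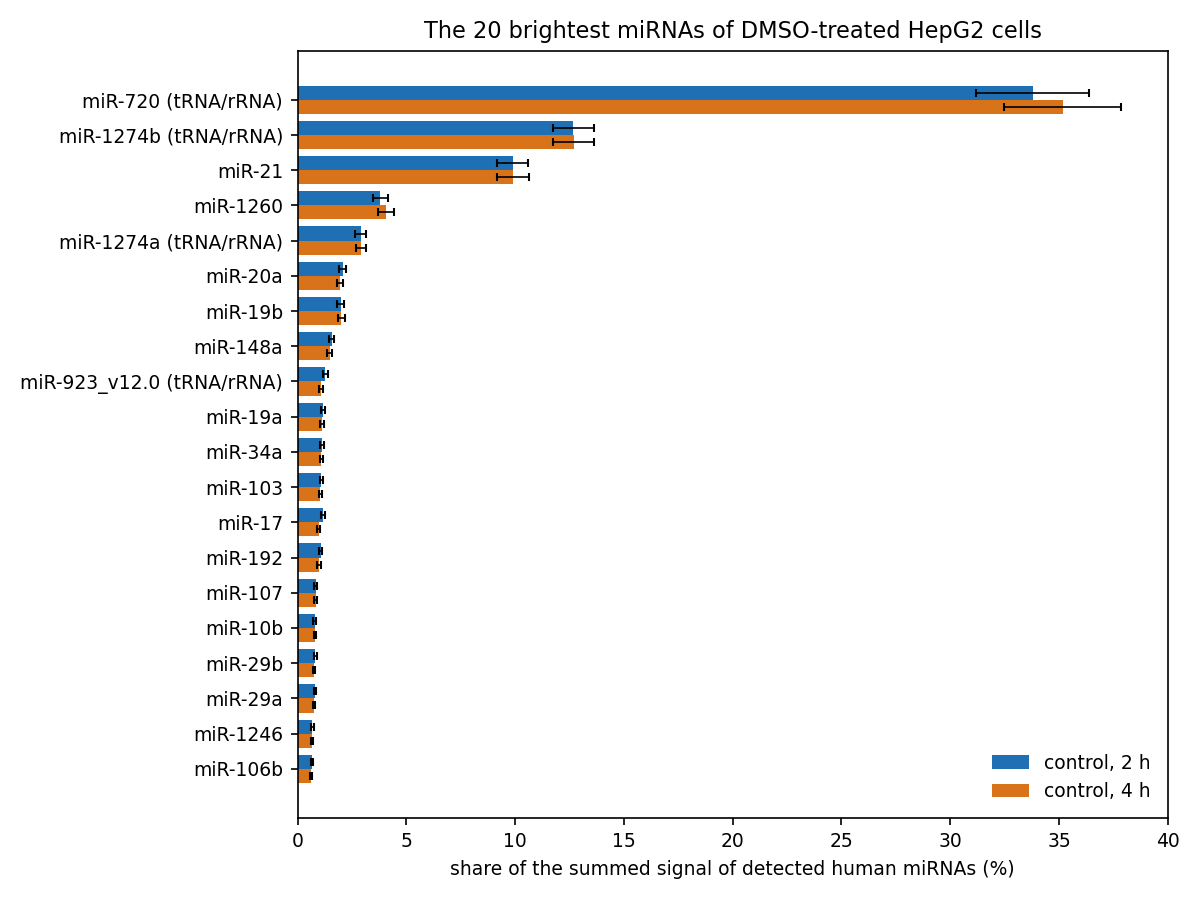
Share of the summed signal of the detected human miRNAs (%, bars from 0) for the 20 entries with the highest mean share, on the control arrays at 2 h and 4 h; whiskers are the measurement error of the entry's signal, and entries now classed as tRNA or rRNA fragments are marked. The share of miR-720 was 33.8% and 35.2%, and every entry below miR-1274a held under 3% on both arrays.

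Grouped by seed, a few families again held most of the signal. The 178 matched miRNAs detected on both arrays had 131 different seeds, of which 27 were shared by more than 1 of them. The first 10 seeds held 64.1% of the signal at 2 h and 64.7% at 4 h once the entries listed as tRNA and rRNA fragments were set aside. These shares include the seed of miR-1260, which was not on that list, at 7.75% and 8.54%. The seed AAAGUGC of miR-20a, miR-17, miR-106b, miR-93 and miR-20b held 4.87% of the whole signal at 2 h and 4.47% at 4 h. The seed GUGCAAA of miR-19a and miR-19b held 3.14% and 3.13%, so that these 2 seeds, both of the miR-17-92 cluster and its paralogs, ranked 2 and 4 after the seed of miR-21 and that of miR-1260. The seed GAGGUAG of the 9 let-7 miRNAs held 1.31% and 1.36%.

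The detected miRNAs began with uridine more often than the table as a whole. The first base, which Argonaute is known to prefer as uridine, was U in 48.9% of the 178 matched miRNAs detected on both arrays and in 62.5% of the 40 brightest of them. In the 2370 mature entries of the RefSeq table it was U in 36.8%. That table is not limited to the miRNAs on the array, and undetected miRNAs of the array were not compared. Among the matched miRNAs it was U in 53.6% of the 153 whose names have no asterisk and in 5 of the 25 passenger strands. The matched miRNAs were 81.3% of the 219, and the tRNA and rRNA fragments were not among them.

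Most listed members of the proliferation cluster miR-17-92 and its paralogs were detected. On the array were 12 of 13 listed members of the 3 paralogous clusters, without miR-106a. Of these 12, 11 were detected on both control arrays, with 9.51% of all signal at 2 h and 9.02% at 4 h. Over all human miRNAs the share detected on both arrays was 25.7%. The dimmest of the 11 had a signal of 140 at 2 h and 122 at 4 h and the brightest 2476 and 2190. The exception was miR-363, whose brighter probe measured 0.280 ± 1.12 at 2 h and 0.402 ± 1.48 at 4 h. The sequences of miR-19b and miR-92a are also encoded on chromosome X within MIR106AHG, so their signals cannot be assigned to either cluster. In sequence, miR-18b and miR-20b are close to miR-18a and miR-20a, as miR-19b is to miR-19a, and cross-hybridisation was not tested. The sequences of miR-17, miR-18a, miR-19a, miR-20a, miR-19b and miR-92a lie between chr13:91350618-91350640 and chr13:91351361-91351382, on the plus strand of GRCh38.p14 within MIR17HG, and miR-106b and miR-25 lie within MCM7.

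All 7 listed liver miRNAs were detected on both arrays, beside 25.7% of all human miRNAs, but they differed widely in brightness. The brightest were miR-148a and miR-192, the latter at 1268 at 2 h and 1069 at 4 h. Its partner miR-194, encoded beside miR-192 and again beside miR-215, was at 744 ± 56.7 and 566 ± 43.3. Both arms of the IGF2-hosted miR-483 hairpin were present, with miR-483-3p at 282 and 239 and miR-483-5p at 99.7 and 81.9. In contrast, miR-122, the marker of the adult hepatocyte, had a signal of 31.5 ± 2.77 at 2 h and 30.1 ± 3.02 at 4 h. It ranked 133 of 235 and 124 of 226, below the median of the detected miRNAs on both arrays, and both of its probes were detected on both. The other liver miRNA, miR-885-5p, was at 41.7 and 36.3.

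The 3 miRNAs miR-192, miR-194 and miR-215, which are known in liver and gut epithelium, were all bright. The signal of miR-215, which shares its seed with miR-192, was 708 ± 50.2 at 2 h and 626 ± 44.4 at 4 h. The 5 members of the miR-200 family were all detected on both arrays, beside 25.7% of all human miRNAs. This family is known to hold cells in the epithelial state by repressing ZEB1 and ZEB2. Within this family miR-200b was brightest at 371 and 347, followed by miR-200a at 180 and 151 and miR-429 at 126 and 113, which come from 1 cluster on chromosome 1. The members of the other cluster, miR-141 and miR-200c, were at 49.1 and 32.6 at 2 h and at 44.3 and 28.3 at 4 h. Of the epithelial list only miR-203 and miR-205, miRNAs of skin and other stratified epithelia, were not detected.

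The let-7 family, which is known to restrain growth genes such as RAS and LIN28, was detected in all of its 9 members. Its brightest members were let-7f, at 574 ± 44.4 at 2 h and 532 ± 40.9 at 4 h, and let-7a, at 516 ± 37.5 and 496 ± 35.9. Its dimmest was miR-98, at 8.78 and 9.12. Members of this family are close in sequence, as let-7a and let-7f are, and so are miR-103 and miR-107. Cross-hybridisation between miRNAs of close sequence was not tested for any group. The groups named after miR-29, miR-103, miR-23, miR-26, miR-130, miR-148, miR-183, miR-221, miR-10 and miR-320 were also detected in every listed member. These groups include miR-10b, a HOX cluster miRNA with signals of 934 and 856, and miR-26b, which was at 746 and 716. The share detected on both arrays was 25.7% over all human miRNAs. Among names without an asterisk it was 61.0% for let-7 and numbers below 200.

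Other families were present only in part. From the miR-34 family, miR-34a alone of the 5 listed members was detected, but the list held only 1 arm of the miR-34b hairpin. The probes of that listed arm, miR-34b, gave at most 0.188 ± 1.12 at 2 h and 0.946 ± 1.499 at 4 h. The other arm, miR-34b* (now named miR-34b-5p), had signals of 87.2 ± 6.47 and 83.9 ± 6.39. Its seed, AGGCAGU, overlaps GGCAGUG of miR-34a, and it was the brightest name with an asterisk on both arrays. In the miR-30 family, 4 of 5 members were detected, and miR-30a reached 2.87 times the error of its probe at 2 h and 2.28 times at 4 h, under the limit of 3. In the miR-16 family, miR-16 was at 681 and 602 and miR-15b at 423 and 393, while miR-424, miR-497 and miR-503 were not detected and miR-195 was detected at 2 h alone. Of the miR-181 family, miR-181c was the 1 of 4 members that was not detected, and the others were dim, between 13.4 and 20.6.

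Clusters known for narrow expression in placenta or embryo were not detected, and an imprinted one almost not. None of the 39 listed members of the placental C19MC cluster and none of the 9 members of the embryonic miR-302 and miR-371 clusters was detected on either control array, where the detection rate over all human miRNAs was 27.6% at 2 h and 26.6% at 4 h. The highest signal among the 85 probes of the C19MC members was 2.54 at 2 h and 2.77 at 4 h. From the imprinted cluster at 14q32, 2 of 54 listed members were detected, namely miR-494 at 107.2 and 81.6 and miR-487b at 10.1 and 8.17. That list held no names with an asterisk. The other arm of the listed and undetected miR-431, miR-431*, was detected at 10.3 at 2 h and 4.97 at 4 h.

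The lists of markers of other cell types, shown in the plot of families and cell type lists, are read beside the 25.7% of all 851 human miRNAs that were detected on both arrays. The listed blood, endothelial and muscle markers were not detected. The pancreatic and endocrine list was near that share at 20%, and the fibroblast and smooth muscle list was above it at 50%. The undetected markers were the 8 blood cell miRNAs, among them miR-142-3p, miR-150, miR-223 and miR-451, the 2 endothelial arms of miR-126 and the 7 muscle miRNAs, among them miR-1, miR-133a and miR-206. The highest of their probes reached 3.26 at 2 h and 3.31 at 4 h, both for miR-223 and both under 3 times the error. The other arm of the miR-150 hairpin, miR-150*, was not on the blood cell list and was detected at 25.2 and 20.4. Of the 6 fibroblast and smooth muscle miRNAs, miR-145 was at 30.8 and 29.9, miR-199b-5p at 27.2 and 24.2 and miR-199a-3p at 20.09 and 20.05, while miR-143, miR-199a-5p and miR-214 were not detected. In bulk RNA, few cells with much of a miRNA and many cells with little of it cannot be told apart. Of the 10 neuronal miRNAs, miR-128 was detected on both arrays, at 94.5 and 80.1, and miR-219-5p at 2 h alone. Of the 5 pancreatic and endocrine miRNAs, miR-7 was detected, at 111 and 103, and miR-375 was not.

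**Figure D3:**
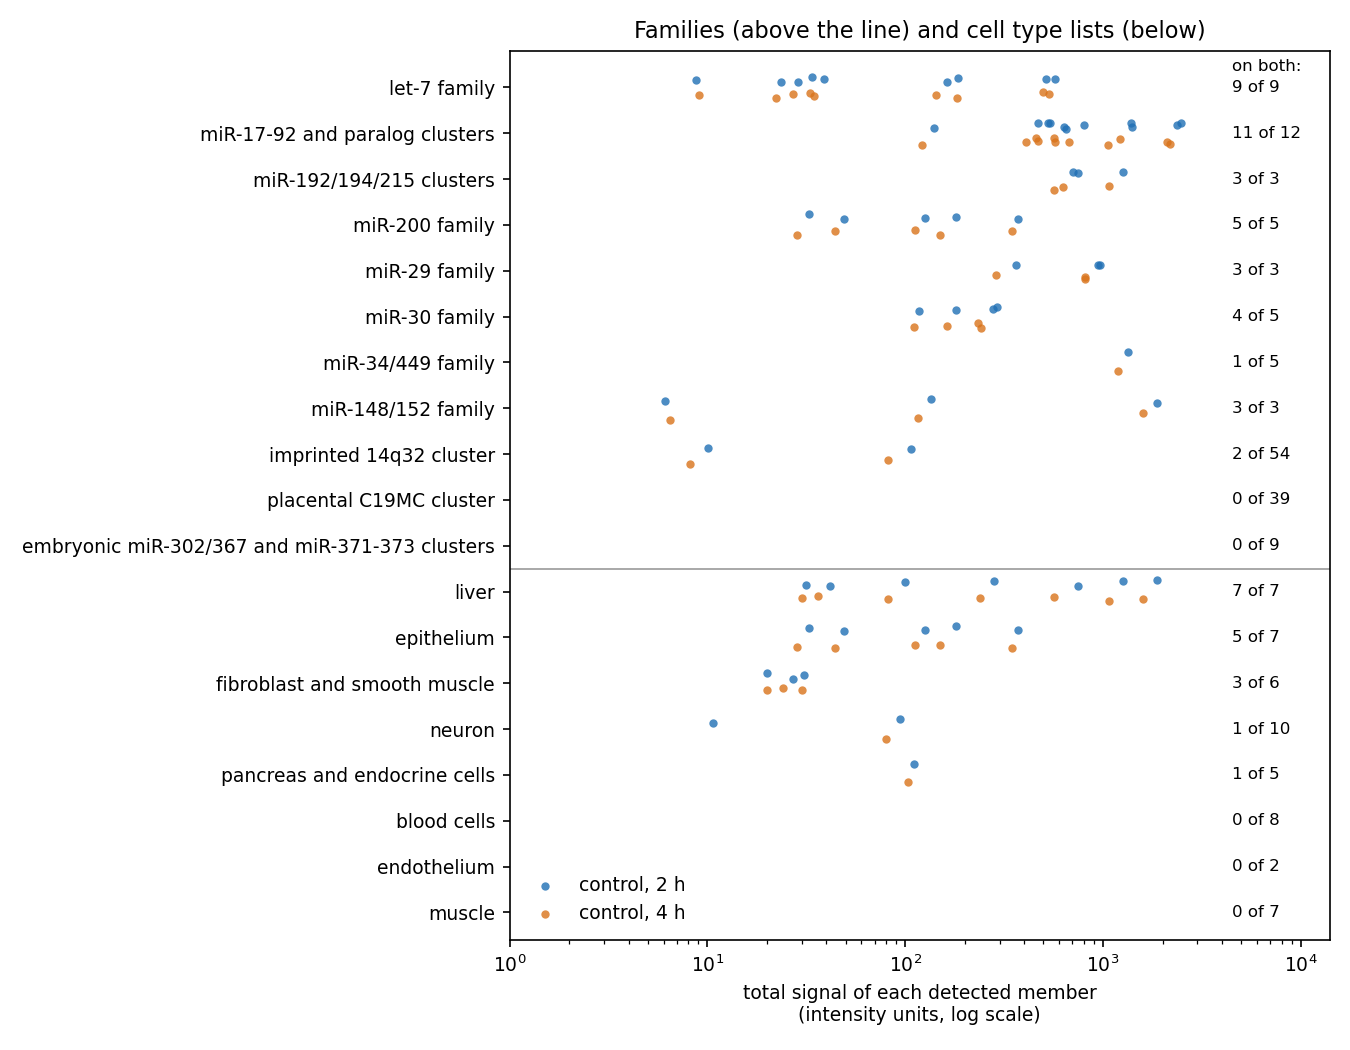
Total signal (intensity units, log axis) of each detected member of 11 families or genomic clusters (above the line) and 8 cell type lists (below it) on the control arrays at 2 h and 4 h; each point is a miRNA and the number at the right is how many of those on the array were detected on both. The let-7 row shows 9 of 9 members and the C19MC row 0 of 39.

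Passenger strands were detected less often and were dim. Of 171 miRNAs whose names end in an asterisk, 33 (19.3%) were detected on both arrays, against 186 of 680 (27.4%) of the other names, and they held 0.462% of the signal at 2 h and 0.440% at 4 h. The guide of 26 of these 33 was also detected on both arrays, and it was brighter than its passenger on both in 25. The exception was miR-500*, at 24.9 ± 2.51 and 21.3 ± 2.65 where miR-500 was at 4.93 ± 0.858 and 4.03 ± 1.01. In 6 hairpins the arm named as guide was detected on neither array while the arm with the asterisk was detected on both. They were those of miR-34b*, miR-150*, miR-1914*, miR-191*, miR-431* and miR-33b*. The other passenger strand among the 100 brightest was miR-17*, at 67.6 and 61.0. The passenger of miR-21, miR-21*, was at 27.1 ± 2.60 and 24.7 ± 2.89, and its guide at 11833 and 10795.

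Detection differed between classes of registration number, without following their order throughout. Among names without an asterisk, let-7 and miRNAs with numbers below 200, which were the earliest to be cloned, were detected on both arrays in 86 of 141 cases (61.0%). From 200 up to 500 the share was 29.8% of 151 miRNAs. From 500 up to 1000 it was 12.1% of 265, and from 1000 upward it was 18.7% of 123.

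The control profiles at 4 h and 2 h were compared for the 219 miRNAs detected on both arrays, after each signal was divided by a 75th percentile taken on the same array across the 197 miRNAs detected on all 4 arrays. That percentile was 243 at 2 h and 225 at 4 h. Time and array cannot be told apart in this comparison, since each time point had 1 array. Across the 219 miRNAs, which share 1 RNA sample and 1 hybridisation per array, the scaled log2 signals had a Pearson correlation of 0.993 and a Spearman correlation of 0.993. The ranks were close as well, with 9 of the 10, 19 of the 20, 49 of the 50 and all of the 100 brightest shared.

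The median log2 difference of 4 h over 2 h was -0.08, and the SD over the miRNAs was 0.32. The sign of that median rests on the scaling, and it was -0.19 without scaling and 0.13 with the median in place of the percentile. The differences narrowed with brightness. When the 219 were split into 3 equal groups by brightness, the brightest group, with signals from 122 to 40425, had an SD of 0.086, and its median measurement error of a difference was 0.15. In the middle group the SD was 0.14, and in the dimmest, with signals from 1.79 to 30.9, it was 0.52. Differences beyond 1.96 times their measurement error were found for 15 of 219 (6.85%), of which 13 were in the dimmest group.

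More than 2-fold apart were 5 of the 219 miRNAs (2.28%), with 1 higher at 4 h (0.457%) and 4 lower at 4 h (1.83%), and all 5 lay in the dimmest group. The highest difference was that of miR-29b-1*, a passenger strand, at 2.04 ± 0.597 at 2 h and 6.90 ± 1.16 at 4 h (log2 difference 1.87, SE 0.49). The lowest was that of let-7b*, at 10.1 ± 1.24 and 2.40 ± 0.776 (log2 difference -1.96, SE 0.50). The passenger miR-33b* went from 6.67 to 2.36 (log2 difference -1.39, SE 0.52), miR-1288 from 12.9 to 5.40 (-1.15, SE 0.47) and miR-212, which is known from neurons, from 11.0 to 5.04 (-1.02, SE 0.50).

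For all 5, the number of probes that entered the sum differed between the arrays. For let-7b* all 4 probes were counted at 2 h and 1 at 4 h, although the probes themselves measured 2.21 to 3.14 at 2 h and 1.87 to 2.40 at 4 h. For miR-33b* 3 probes were counted at 2 h and 1 at 4 h, for miR-1288 and miR-212 2 and 1, and for miR-29b-1* 1 and 2. Every probe of these 5 miRNAs had a larger error at 4 h, as the first probe of let-7b* did (0.614 at 2 h and 0.776 at 4 h). The 4 probes of miR-29b-1* all measured more at 4 h, at 0.395, 1.24, 1.74 and 2.04 at 2 h and 1.39, 1.49, 3.95 and 2.95 at 4 h. Unlike the other 4, this miRNA kept a difference of 0.98 with the mean of all its probes. With the brightest probe, chosen on each array separately, its difference was 1.17, and it was the 1 miRNA past 2-fold. Its highest probe signal was 2.04 at 2 h and, for another probe, 3.95 at 4 h, so the 1.17 may compare different probes. With normexp background correction its difference was 0.29. Among the 184 miRNAs for which the same probes were summed on both arrays, none was past 2-fold and the SD was 0.16. All 5 were among the other 35, whose SD was 0.61. With the sum taken over the probes counted on both arrays, the difference of let-7b* was 0.13, that of miR-33b* 0.23, that of miR-1288 -0.33, that of miR-212 -0.08 and that of miR-29b-1* 0.64.

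**Figure D4:**
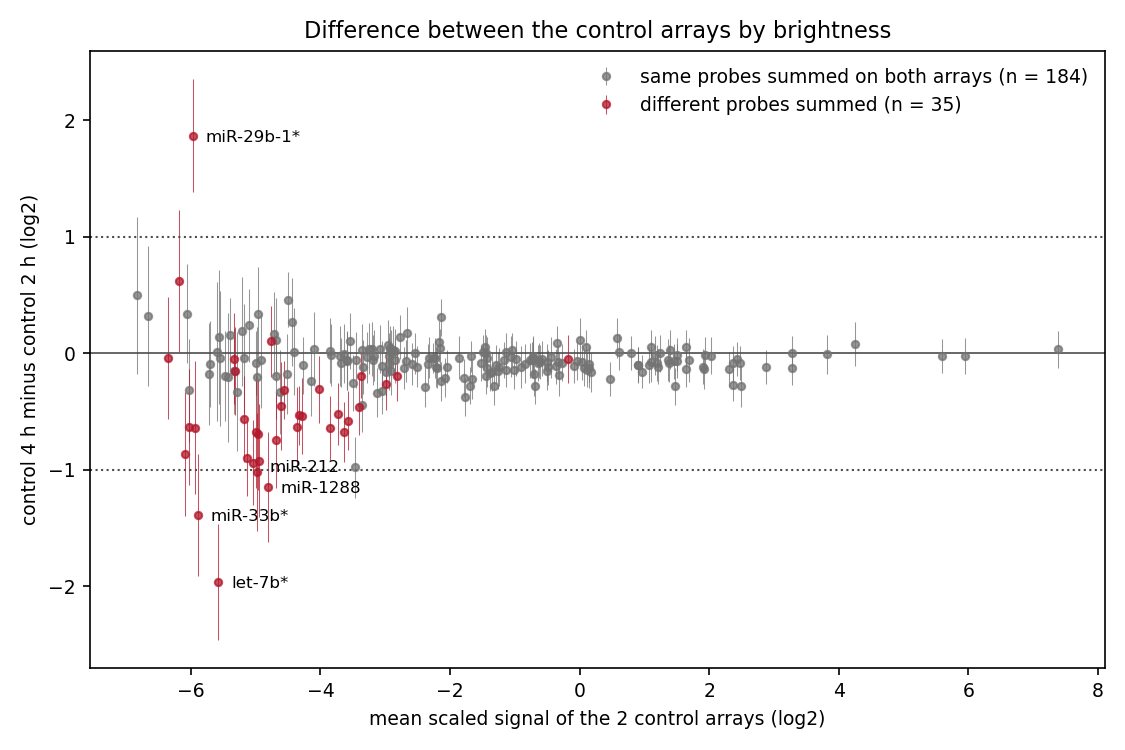
Log2 difference of the control array at 4 h minus that at 2 h (scaled signals) against the mean scaled log2 signal of the 2 arrays, for 219 miRNAs detected on both; whiskers are the measurement error and dotted lines mark 2-fold. The 5 labelled miRNAs past 2-fold are all dim and all belong to the 35 for which different probes were summed (red), and the 184 with the same probes (grey) stay within 2-fold.

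The largest difference among miRNAs with the same probes was that of miR-630, at 30.9 ± 2.70 at 2 h and 14.5 ± 2.33 at 4 h (log2 difference -0.98, SE 0.26), which was just inside 2-fold. After miR-29b-1*, the largest differences upward were those of miR-595 (0.62, SE 0.61) and miR-29a* (0.50, SE 0.67), both of which lay within 1.96 SE of 0. No member of any family or cell type list was past 2-fold. The let-7 family lay between -0.12 and 0.17 with a median of 0.03, the 7 liver miRNAs between -0.28 and 0.05 with a median of -0.13, and the 11 members of the miR-17-92 list had a median of -0.09, beside -0.08 over all 219. For miR-122 the difference was 0.05 (SE 0.19) and for miR-21 -0.02 on the same scale.

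The miRNAs detected on 1 control array alone were dim. The 16 found at 2 h alone were led by miR-219-5p at 10.7 ± 1.77, miR-550 at 9.67 ± 1.23 and miR-1539 at 9.13 ± 1.71. The 7 found at 4 h alone were led by miR-30d* at 5.25 ± 1.13, miR-614 at 3.48 ± 1.11 and miR-1227 at 3.31 ± 0.846. Of the 16, 15 were also detected in berberine-treated cells at 4 h, on the brightest of the 4 arrays, and 0 in those at 2 h, on the dimmest. Of the 7, 0 were detected with berberine at 4 h and 1 with berberine at 2 h. Over all human miRNAs, 28.4% were detected with berberine at 4 h and 23.4% with berberine at 2 h. The dimmest miRNAs detected on both control arrays were miR-29a*, miR-29b-1* and miR-15a*, with signals at 2 h of 1.79, 2.04 and 2.16.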

How the data were processed

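The authors deposited the Feature Extraction 10.7.3.1 output of each array, a linear, background-subtracted intensity per spot, probe and miRNA with its error and a detection flag, not scaled between arrays. Per the file headers the array design refers to hg18. A second deposited table holds the authors' ratios of berberine over control and was not used. The 2 control arrays were those labelled as DMSO controls. Rows of human miRNAs without control spots were kept (2370 probes, 13616 spots), shares were taken over the detected miRNAs, and the error of a log2 difference was propagated from the software's errors. Those errors cover the measurement alone, and having 1 array per time point limits the precision. Normexp correction, planned on mean signals, was run on median signals because the files give no mean. Calculations used Python 3.11.15, numpy 2.4.6, pandas 2.3.3 and limma 3.58.1 in R 4.3.3, and were tested on simulated data.

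The members, the lists and the alternatives were chosen with earlier results of these data known. Named were the 20 miRNAs with the highest mean share, up to 4 of the brightest members of each list and its undetected members (counted for long lists), those past 2-fold and the 3 largest differences each way, the 3 brightest found on 1 array each way, the 3 dimmest, and passenger strands among the 100 brightest. Outside this rule, miR-500*, miR-21*, miR-1826 and the passengers with undetected guides were named after their values were seen. Old array names were paired with current arm names by a hand-made list before sequences were matched. Gene intervals were compared without strand.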

Additional observations from a re-analysis of the deposited data

How the results depend on the processing

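When 50% of the spots of 1 probe had to be well above background, 210 miRNAs were detected at 2 h and 188 at 4 h. These counts were within 1.5 times of the 235 and 226 given. The other alternative, a total signal above 3 times its error, gave 235 and 226. It could not differ, because the total sums only probes past 3 times their error. With normexp, whose offset of 50 raises dim signals, the 10 brightest held 63.9% and 64.6% and 83 and 85 entries made up 90%. Without the tRNA and rRNA fragments, chosen after seeing the data, these values were 50.9% and 51.6%, and 64 and 62. The median difference was 0.13 with the median over all 4 arrays and 0.42 with the percentile taken across every human miRNA of the array. The number past 2-fold was 9 without scaling, 3 with the median, 3 with the percentile across every human miRNA, 3 with quantile normalization, 1 with the brightest probe (miR-29b-1*, at 1.17), 0 with the mean of all probes, with normexp, with the same probes or above the median signal, and 19 at 1.5-fold. Reversed differences were, with the brightest probe, let-7b* 0.18, miR-33b* 0.17 and miR-212 0.22. With normexp they were let-7b* 0.10, miR-33b* 0.15, miR-1288 0.16 and miR-212 0.17. With the same probes they were let-7b* 0.13 and miR-33b* 0.23. For the sum over the same probes the cause is its construction, which leaves out probes counted on 1 array alone. For the other settings the cause was not tested. Spearman correlations ran from 0.993 to 0.998. No replicate could be left out and no paired analysis was possible because each time point had 1 array.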

Other observations

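The unscaled signals of 4 of the 7 entries listed as tRNA or rRNA fragments, and that of miR-1260, differed little between the 4 arrays. The signal of miR-720 relative to the control array at 2 h was 0.948 on the control array at 4 h, 0.932 with berberine at 2 h and 0.928 with berberine at 4 h. For miR-1260 these ratios were 0.977, 0.955 and 1.04. For the median of the other 190 miRNAs detected on all 4 arrays they were 0.872, 0.683 and 1.23, and for miR-21 0.912, 0.685 and 1.42. The brightest array exceeded the dimmest 1.08-fold for miR-720, 1.09-fold for miR-1280 and miR-1260, 1.12-fold for miR-1274a and 1.13-fold for miR-1274b, and 1.86-fold for the median of those 190. The other 3 entries varied more, with 1.47-fold for miR-1308 and 1.35-fold for miR-923 and miR-1826. Spots of miR-720 were scaled up from the lower-gain scan on all 4 arrays. Those of miR-1274b were scaled up on every array except berberine at 2 h, and those of miR-21 with berberine at 4 h alone. The 7 entries together held 58.2% of the signal with berberine at 2 h and 44.2% at 4 h, beside 51.1% and 52.4% on the control arrays.

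The partner arms and cluster mates of some undetected miRNAs were well detected. The 4 probes of miR-191 reached at most 1.51 times their error at 2 h and 1.35 times at 4 h, while miR-191* was at 13.2 and 11.3 and miR-425, which is processed from the same transcript, at 278 and 242. The probes of miR-143 reached 1.58 and 0.766 times their error, while miR-145, its cluster mate, was at 30.8 and 29.9. For miR-150 no probe exceeded its error, and miR-150* was at 25.2 and 20.4.

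Of the 88 viral miRNAs on the array, 4 were detected at 2 h and 3 of these again at 4 h. The share detected over all human miRNAs was 27.6% at 2 h and 26.6% at 4 h. Whether these 4 signals came from viral RNA or from cross-hybridisation was not tested. The signal of ebv-miR-BART13 was 61.8 ± 5.78 at 2 h and 55.6 ± 5.44 at 4 h. That of ebv-miR-BART12 was 7.32 ± 1.06 and 12.9 ± 1.63, and that of kshv-miR-K12-3 was 11.1 ± 1.58 and 9.52 ± 1.76. The signal of hsv1-miR-H6 was 9.08 ± 1.71 at 2 h, and it was not detected at 4 h.

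Probes of the same miRNA differed in brightness. Among miRNAs with more than 1 detected probe, the brightest probe exceeded the dimmest by a median of 1.90-fold at 2 h (186 miRNAs) and 1.85-fold at 4 h (162 miRNAs), with a maximum of 48.6-fold at 2 h.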
